A study of Homo sapiens with 6 samples.

Results

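The genes described here are 10 genes of the Notch pathway, namely the receptors NOTCH1, NOTCH2, NOTCH3 and NOTCH4, the ligands JAG1, JAG2 and DLL1, and the target genes HES1, HEY1 and HEYL. They were chosen by symbol from the 23346 genes of the count table, and all 10 had a row. The cells were BT549, an established mesenchymal-like breast cancer cell line with the genotype label WT. Of 6 libraries, 3 came from cells given NC siRNA, a negative control, and 3 from cells given BNC2 siRNA, an equal mix of 3 siRNAs against the zinc finger protein basonuclin-2. Both groups received 20 nM siRNA, and RNA was prepared on day 6 after transfection. The labels name Lipofectamine 2000 as the reagent, whereas the methods name RNAiMAX. The methods call the 3 libraries of a group biological replicates. A single cell line, a single control siRNA and a pool of siRNAs limit the comparison, and poly(A) RNA reports neither receptor cleavage nor protein.

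Notch receptors sit in the plasma membrane and are activated by ligands of the Jagged and Delta-like families on a neighbouring cell. Binding exposes the receptor to an ADAM protease and then to γ-secretase, which frees an intracellular fragment that enters the nucleus and joins the DNA-binding protein RBPJ. The HES and HEY genes, which encode transcriptional repressors, are the best known targets of this complex. In breast cancer cells the pathway has been linked to cell fate, epithelial-mesenchymal transition and invasion.

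The libraries held 16093978 to 18246254 counts on genes, so that the 3 counts which a count of 0 allows correspond to 0.168 to 0.191 CPM (counts scaled to library size). These limits cover counting error. BNC2 itself was at 51.5 to 65.6 CPM in the NC siRNA libraries and at 35.5 to 41.6 CPM in the BNC2 siRNA libraries, so the groups differed by knockdown to 64.6% of the control level and not by loss of the transcript. The summed level of the mesenchymal markers VIM, FN1, CDH2, ZEB1 and SNAI2 was 4079 to 4168 CPM with NC siRNA and 4954 to 5192 CPM with BNC2 siRNA. Of the other marker lists, 5 epithelial genes summed to at most 0.392 CPM in any library (EPCAM and ESRP1 at 0) and 5 endothelial genes to at most 1.74 CPM (CDH5 at 0). The 5 leukocyte genes summed to 1.90 to 2.31 CPM in NC siRNA and 0.872 to 1.02 CPM in BNC2 siRNA libraries, mostly from CD14 (1.70 ± 0.322 and 0.635 ± 0.111 CPM, SD, n = 3 each), while PTPRC, which marks leukocytes in general, was at 0.214 ± 0.131 and 0.296 ± 0.112 CPM. The part of any of these lists in the results was not tested. Fewer expressing cells and less RNA per cell cannot be told apart in such bulk libraries.

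After BNC2 knockdown, NOTCH2 was up-regulated, and NOTCH1, NOTCH3, JAG1, JAG2, DLL1, HES1 and HEY1 were down-regulated. The falls of DLL1, JAG1 and HES1 exceeded 2-fold, whereas no receptor that was tested changed by more than 1.34-fold. NOTCH4 and HEYL were at or near 0 and were not tested. A gene was tested when it exceeded 1 CPM in 3 or more of the 6 libraries, and called at an adjusted p of at most 0.05 by edgeR's quasi-likelihood test with Benjamini-Hochberg adjustment over the 12186 genes tested. Of these, 72.9% were called, 36.6% higher and 36.2% lower with BNC2 siRNA, so that a call was common in these data. The 8 Notch genes tested were all called, 1 higher and 7 lower. In all 8 the groups of 3 libraries did not overlap, as was also seen for 74.9% of the genes tested. A called fall of at least 2-fold was found for 3 of the 8 and for 10.1% of the genes tested. The median log2 fold change was -0.52 over the 8 genes and 0.0014 over all genes tested. DLL1 passed the filter through the NC siRNA libraries alone, so its call could go in one direction. Without DLL1, 1 gene was higher and 6 were lower, with a median of -0.41, and 2 of the 7 had a called fall of at least 2-fold.

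**Figure D1:**
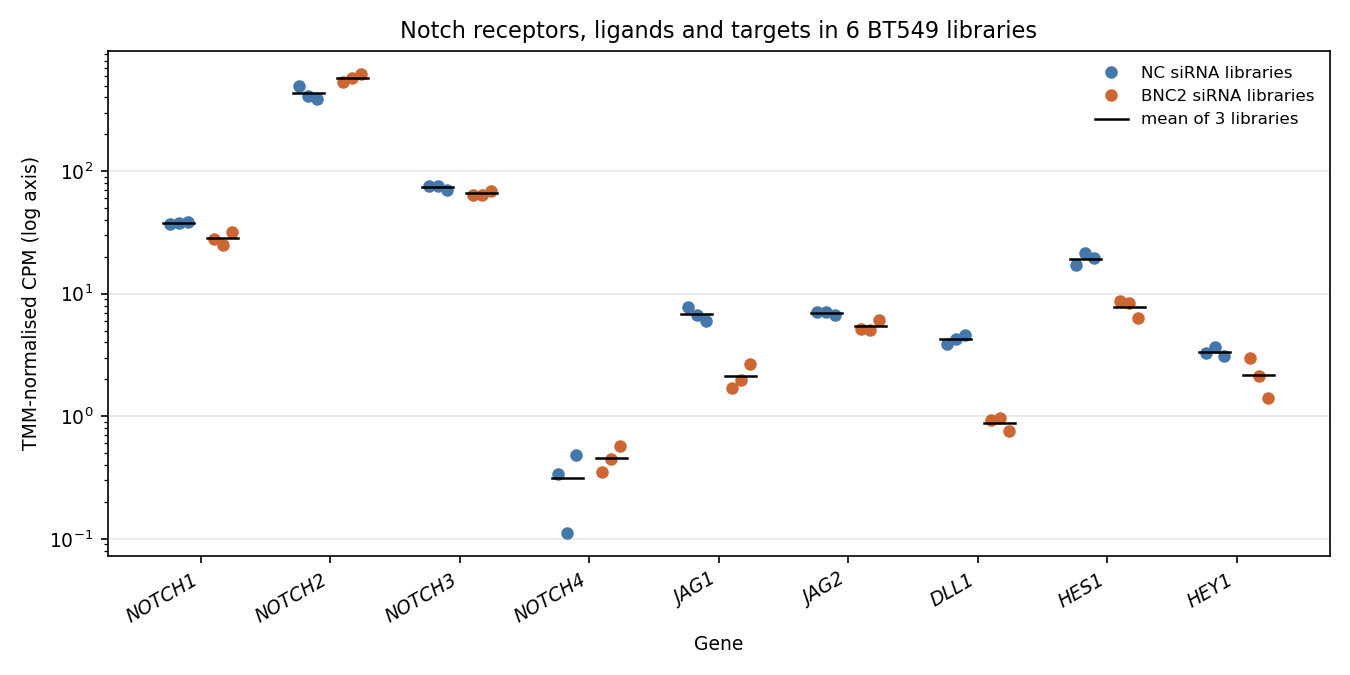
Level of the Notch genes other than HEYL (0 counts in all libraries) in CPM, scaled by edgeR's TMM method, on a log axis, with 1 point per library and a bar at the mean of the 3 libraries of a group. Among the genes tested, NOTCH2 is the one whose BNC2 siRNA points lie above its NC siRNA points, the widest gaps are those of DLL1, JAG1 and HES1, and the points of NOTCH4, which was not tested, overlap.

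Of the receptors, NOTCH2 was the most highly expressed and the 1 that rose. NOTCH2 (chromosome 1, 120454176 to 120643366, minus strand, in GRCh37, the assembly of hg19, as for the other gene positions) encodes a broadly expressed receptor. It reached 491, 414 and 391 CPM with NC siRNA and 538, 571 and 624 CPM with BNC2 siRNA. The lowest BNC2 siRNA library was above the highest NC siRNA library. From 432 ± 52.3 CPM to 578 ± 43.8 CPM (SD, n = 3 each), edgeR's fit gave a 1.34-fold rise (log2 fold change 0.42 ± 0.08 SE, adjusted p = 0.000126). The log2 fold change lay between 0.33 and 0.50 in all other fits run. NOTCH2NL, a partial copy of NOTCH2, fell in the same libraries. It was at 15.4, 15.6 and 16.9 CPM with NC siRNA and at 6.51, 7.33 and 7.19 CPM with BNC2 siRNA (log2 fold change -1.19 ± 0.11 SE, adjusted p = 6.25e-08). Uniquely mapped reads were counted, so reads from stretches that both genes share are missing, and the values of NOTCH2NL in particular are uncertain.

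NOTCH1 (chromosome 9, 139388885 to 139440500, minus strand) encodes the receptor best known from T cell development and leukaemia. It was at 37.2, 37.7 and 38.5 CPM with NC siRNA and at 28.0, 25.0 and 32.1 CPM with BNC2 siRNA. The control libraries lay close together and all BNC2 siRNA libraries were below them. The level fell to 75.0% of the control, from 37.8 ± 0.650 CPM to 28.4 ± 3.53 CPM (SD, n = 3 each; log2 fold change -0.41 ± 0.09 SE, adjusted p = 0.000462). This call held in each alternative fit, with a log2 fold change between -0.51 and -0.33.

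NOTCH3 (chromosome 19, 15269849 to 15311806, minus strand) encodes a receptor known from vascular smooth muscle. It stood at 75.3, 76.1 and 70.3 CPM with NC siRNA and 64.3, 63.6 and 69.5 CPM with BNC2 siRNA. The highest BNC2 siRNA library and the lowest NC siRNA library were almost level. The log2 fold change was -0.17 (95% confidence interval -0.31 to -0.03, adjusted p = 0.0285), the smallest called among these genes. It was no longer called without NC siRNA replicate 2 (adjusted p = 0.0623), BNC2 siRNA replicate 1 (0.0926) or BNC2 siRNA replicate 2 (0.134), without the low-count filter (0.0948) or with a replicate block (0.0785).

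NOTCH4 (chromosome 6, 32162620 to 32191844, minus strand) encodes a receptor best known from endothelium. Its counts were 6, 2 and 8 with NC siRNA and 6, 8 and 9 with BNC2 siRNA. These ranges overlap, and without the low-count filter the log2 fold change was 0.58 with a standard error of 0.61 (adjusted p = 0.445), so that no difference was detectable at this depth. The gene overlaps GPSM3 on the same strand, where reads that fall on both genes were not counted.

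Divided by the length of the merged exons, the receptor levels can be compared with each other. With NC siRNA, NOTCH2 stood at 25.8 ± 3.13 CPM per kb, NOTCH3 at 7.85 ± 0.337 and NOTCH1 at 3.01 ± 0.0519 CPM per kb (SD, n = 3 each). These receptors did not overlap in any library. NOTCH2 made up 72.7%, 69.0% and 68.8% of the summed receptor level per kb with NC siRNA and 77.9%, 79.5% and 78.8% with BNC2 siRNA. All BNC2 siRNA libraries thus held a higher share of NOTCH2 transcript. The share of NOTCH3 went from 21.5 ± 1.44% to 16.0 ± 0.520%, and that of NOTCH1 from 8.26 ± 0.850% to 5.17 ± 0.438% (SD, n = 3 each). The summed receptor level was 36.7 ± 3.28 CPM per kb with NC siRNA and 43.8 ± 3.14 CPM per kb with BNC2 siRNA. These shares and sums are descriptions, without a test.

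Each of the ligands was down-regulated, DLL1 and JAG1 strongly and JAG2 weakly. DLL1 (chromosome 6, 170591294 to 170615653, minus strand), a Delta-like ligand, was at 3.89, 4.26 and 4.58 CPM with NC siRNA and at 0.931, 0.959 and 0.764 CPM with BNC2 siRNA. These values rest on 69, 76 and 76 counts against 16, 17 and 12 counts, and the groups are far apart. DLL1 fell to 21.1% of the control level (log2 fold change -2.24 ± 0.22 SE, adjusted p = 1.19e-07), and 2.23% of the genes tested fell further. Without any 1 of the NC siRNA libraries, fewer than 3 libraries had more than 1 CPM and the gene was not tested. Its log2 fold change lay between -2.32 and -2.16 in the fits that tested it.

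JAG1 (chromosome 20, 10618332 to 10654647, minus strand) encodes the Jagged ligand mutated in Alagille syndrome. It was at 7.83, 6.72 and 6.02 CPM with NC siRNA and at 1.69, 1.97 and 2.67 CPM with BNC2 siRNA. The highest knockdown library was below the lowest control library by more than 2-fold. JAG1 fell to 30.6% of the control level (log2 fold change -1.71 ± 0.19 SE, adjusted p = 5.19e-07), and 4.16% of the genes tested fell further. JAG2 (chromosome 14, 105607319 to 105635161, minus strand), the other Jagged ligand, was at 7.15, 7.06 and 6.68 CPM with NC siRNA and at 5.18, 5.02 and 6.05 CPM with BNC2 siRNA. The groups do not overlap but lie close together, and the log2 fold change was -0.37 (95% confidence interval -0.66 to -0.08, adjusted p = 0.0245). JAG2 was no longer called with DESeq2 (adjusted p = 0.0576), without the low-count filter (0.0524), or without BNC2 siRNA replicate 1 (0.0761) or replicate 2 (0.102).

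As the ligands fell by different amounts, their proportions in the libraries shifted. Over the 3 ligands, the summed level per kb went from 2.94 ± 0.0442 CPM to 1.31 ± 0.111 CPM (SD, n = 3 each). DLL1 and JAG2 were level in the control, at 1.11 ± 0.0902 and 1.09 ± 0.0389 CPM per kb, with JAG1 at 0.737 ± 0.0981 CPM per kb. After knockdown JAG2 was the highest of the 3 at 0.847 ± 0.0866 CPM per kb, while DLL1 (0.232 ± 0.0276) and JAG1 (0.227 ± 0.0546) did not differ beyond their spread on this length. The share of JAG2 in the 3 ligands was 37.6%, 37.5% and 36.1% with NC siRNA and 65.6%, 62.9% and 66.0% with BNC2 siRNA. Of the transcript of these 3 ligands, most of what remained was JAG2, which was itself lower than in the control. This does not hold for the canonical ligands as a whole, since DLL3 was at 3.28 ± 0.466 CPM per kb with NC siRNA and 1.95 ± 0.350 CPM per kb with BNC2 siRNA (SD, n = 3 each), above JAG2 in both groups. The order of the ligands depends on the length used. With the longest coding transcript in place of the merged exons, JAG2 was at 1.21, JAG1 at 1.15 and DLL1 at 1.12 CPM per kb in the control. After knockdown JAG1, at 0.356 CPM per kb, was then above DLL1, at 0.234 CPM per kb.

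**Figure D2:**
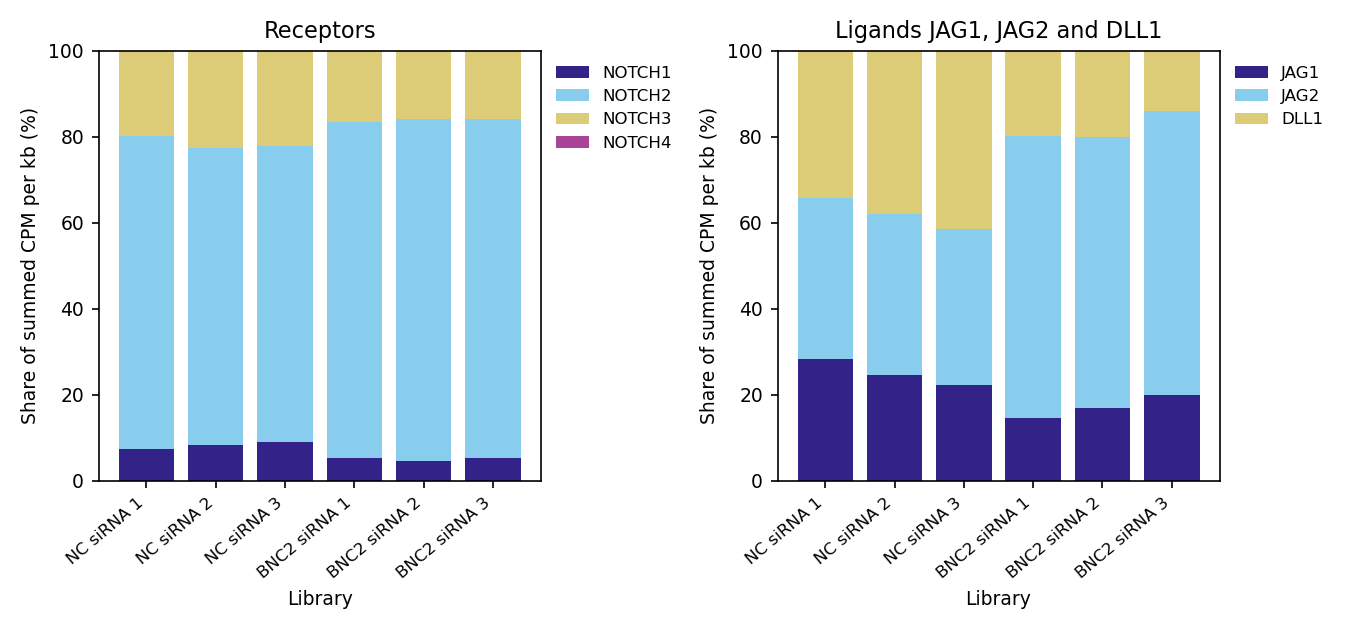
Share of each receptor in the summed receptor level and of each of the 3 ligands in their summed level, in percent of CPM per kb, for each of the 6 libraries. NOTCH2 takes 68.8% to 72.7% of the receptor level with NC siRNA and 77.9% to 79.5% with BNC2 siRNA, and JAG2 takes 36.1% to 37.6% and 62.9% to 66.0% of the ligand level.

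The targets that were detected, HES1 and HEY1, were both down-regulated, HES1 by the larger amount. HEY1 (chromosome 8, 80674606 to 80680092, minus strand) encodes a repressor with a role in the heart and in vessels. Its counts were 58, 66 and 52 with NC siRNA and 51, 38 and 22 with BNC2 siRNA, which correspond to 3.27, 3.70 and 3.13 CPM and to 2.97, 2.14 and 1.40 CPM. The knockdown libraries differed from each other more than the control libraries did, and 1 of them was just below the controls. The log2 fold change was -0.62 (95% confidence interval -1.12 to -0.13, adjusted p = 0.0246). The call was lost without NC siRNA replicate 2 (adjusted p = 0.0706), BNC2 siRNA replicate 2 (0.0661) or its replicate 3 (0.119), and without the last the log2 fold change was -0.40. HEYL (chromosome 1, 40089107 to 40105315, minus strand), a further HEY repressor, had 0 counts in all 6 libraries, which allows at most 0.168 to 0.191 CPM in a library.

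HES1 (chromosome 3, 193853937 to 193856521, plus strand) encodes a basic helix-loop-helix repressor that holds back differentiation in many tissues. It was at 17.3, 21.3 and 19.5 CPM with NC siRNA and at 8.67, 8.41 and 6.37 CPM with BNC2 siRNA. All 3 knockdown libraries were well below the lowest control library. HES1 fell to 40.5% of the control level, from 19.4 ± 2.03 CPM to 7.81 ± 1.26 CPM (SD, n = 3 each; log2 fold change -1.30 ± 0.13 SE, adjusted p = 8.78e-08), and 6.66% of the genes tested fell further. Per kb, HES1 stood above NOTCH3 in each control library (8.40 to 10.4 against 7.47 to 8.09 CPM per kb) and below it in each knockdown library (3.09 to 4.21 against 6.76 to 7.39 CPM per kb).

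The promoters of these targets were searched for the sequence bound by RBPJ, through which Notch reaches its targets. The search covered 250 bases before to 50 bases after the gene start in RefSeq on GRCh38.p14, which is not the build of the counts. The motif was GTGGGAA, or its core TGGGAA, on both strands (TTCCCAC and TTCCCA on the gene's own strand), and each match to the longer motif also holds the core. Of all 35116 promoters, 6.25% held GTGGGAA and 24.0% held TGGGAA. Promoters were found for 8 of the 10 genes, not for DLL1 and HEY1. Both motifs were found in HES1 and HEYL and in none of the 4 receptors, JAG1 or JAG2. Of the 10 HES and HEY genes, 9 had a promoter, of which 5 held GTGGGAA (HES1, HES4, HES5, HEY2 and HEYL) and HES3 held the core alone. Among the tested Notch pathway genes described below, GTGGGAA was held by HES1, HES4, HEY2 and SPEN, which fell, and by RBPJ, which rose. HEY2 passed the filter through the control libraries alone, so its call could only be a fall. In RBPJ the motif lay on both strands in 1 of its promoters. HES6, HES7 and NRARP held no match and fell. Whether a match goes with a direction was not tested. A match is a description of these letters and not a measured binding site. The following stretches of 30 bases are shown because they let HES1, HES4 and HEY2, which fell, be compared with HEYL, which was at 0 counts. They are written 5′ to 3′ on the strand of the gene, with the match in capitals.
HES1, first match: tgaaagttactGTGGGAAagaaagtttggg
HES1, second match: ggaaagaaagttTGGGAAgtttcacacgag
HES4: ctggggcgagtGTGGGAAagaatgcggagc
HEY2, first match: agagttgcggcGTGGGAAagagccgctagg
HEY2, second match: tccgcggccgcgTTCCCACgcctcggctgg
HEYL, first match: ccgcctagggccTTCCCACggctcggcggc
HEYL, second match: aggaaagggcccTGGGAAagggcggtggcg
The stretches of HES1 lie at chr3:194136052-194136081 and chr3:194136066-194136095 on the plus strand, and that of HES4 at chr1:1000156-1000185 on the minus strand. Those of HEY2 lie at chr6:125749617-125749646 and chr6:125749407-125749436 on the plus strand, and those of HEYL at chr1:39639804-39639833 and chr1:39639725-39639754 on the minus strand. In HES1 the longer match and the core lie close together, with the first base of the core at -84 and -70 from the gene start, and in HES4 it lies at -76.

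The ligands, HES and HEY genes and other genes outside these 10 were taken from a list of 63 Notch pathway genes by role. Of the list, 53 were tested, 15 were up-regulated, 28 were down-regulated and 10 were not called. The share called was thus 81.1%, near the 72.9% of all genes tested. Of the 28 that fell, 4 (DLL1, DLL4, HEY2 and DTX4) passed the filter through the control libraries alone and could be called in that direction only. HES6 and LFNG, which also fell, reached the 3 libraries through the controls too, with 1 BNC2 siRNA library above 1 CPM. Without the 10 genes above, 45 were tested, of which 14 rose and 21 fell (77.8% called), and the median of the log2 fold changes was -0.04. The canonical ligands, the HES and HEY genes and NRARP fell where tested, and the other roles moved both ways. The 3 canonical ligands that exceeded 1 CPM in all 6 libraries (JAG1, JAG2 and DLL3) fell, with a median log2 fold change of -0.74, where 36.2% of all genes tested fell. DLL1 and DLL4 also fell, in the direction that the filter fixed. DLL4, a Delta-like ligand of endothelium, had 56, 59 and 51 counts with NC siRNA and 5, 4 and 2 counts with BNC2 siRNA (log2 fold change -3.83 ± 0.32 SE, adjusted p = 1.68e-08), and it passed the filter through the control libraries alone. DLL3, a divergent Delta-like protein, was at 9.35, 7.17 and 9.21 CPM against 6.16, 4.51 and 4.65 CPM (log2 fold change -0.74, adjusted p = 0.000463). Of the non-canonical ligands, DLK2 rose and DNER fell, while DLK1 was not tested. DLK2, which lacks the domain by which canonical ligands activate the receptor, went from 4.62, 4.48 and 5.24 CPM to 21.2, 17.7 and 18.1 CPM (log2 fold change 1.99 ± 0.12 SE, adjusted p = 3.84e-10). DNER, known from neurons, fell from 13.8, 14.3 and 16.4 CPM to 7.39, 5.81 and 6.49 CPM (log2 fold change -1.17 ± 0.13 SE, adjusted p = 2.89e-07).

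The 4 HES and HEY genes that exceeded 1 CPM in all 6 libraries (HES1, HES4, HES7 and HEY1) fell, with a median log2 fold change of -0.96, again beside 36.2% of all genes tested. HES6 and HEY2, which also fell, passed the filter through their control libraries, as HES6 exceeded 1 CPM in 1 BNC2 siRNA library and HEY2 in 0. HES4 was at 9.24, 10.2 and 7.83 CPM with NC siRNA and at 4.19, 3.10 and 2.93 CPM with BNC2 siRNA (log2 fold change -1.41, adjusted p = 8.69e-07). HES6, which in contrast to its relatives counteracts HES1, went from 5.41, 7.06 and 6.50 CPM to 1.34, 0.564 and 0.573 CPM (log2 fold change -2.92, adjusted p = 3.01e-08). HEY2 had 29, 29 and 36 counts against 2, 4 and 1 counts (log2 fold change -3.64, adjusted p = 1.03e-06). HES7, known from the segmentation clock, fell least, from 15.3, 12.9 and 11.4 CPM to 10.8, 10.3 and 8.85 CPM (log2 fold change -0.40, adjusted p = 0.00916). HES3 and HES5, like HEYL, had 0 counts in all libraries, and HES2 had 5 counts in all with NC siRNA and 1 with BNC2 siRNA. NRARP, a feedback inhibitor that is itself a Notch target, fell from 3.72, 4.26 and 4.45 CPM to 2.04, 2.6 and 2.10 CPM (log2 fold change -0.88, adjusted p = 0.000503). Without HES6 and HEY2, the falls of the HES and HEY genes ranged from -0.40 to -1.41.

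**Figure D3:**
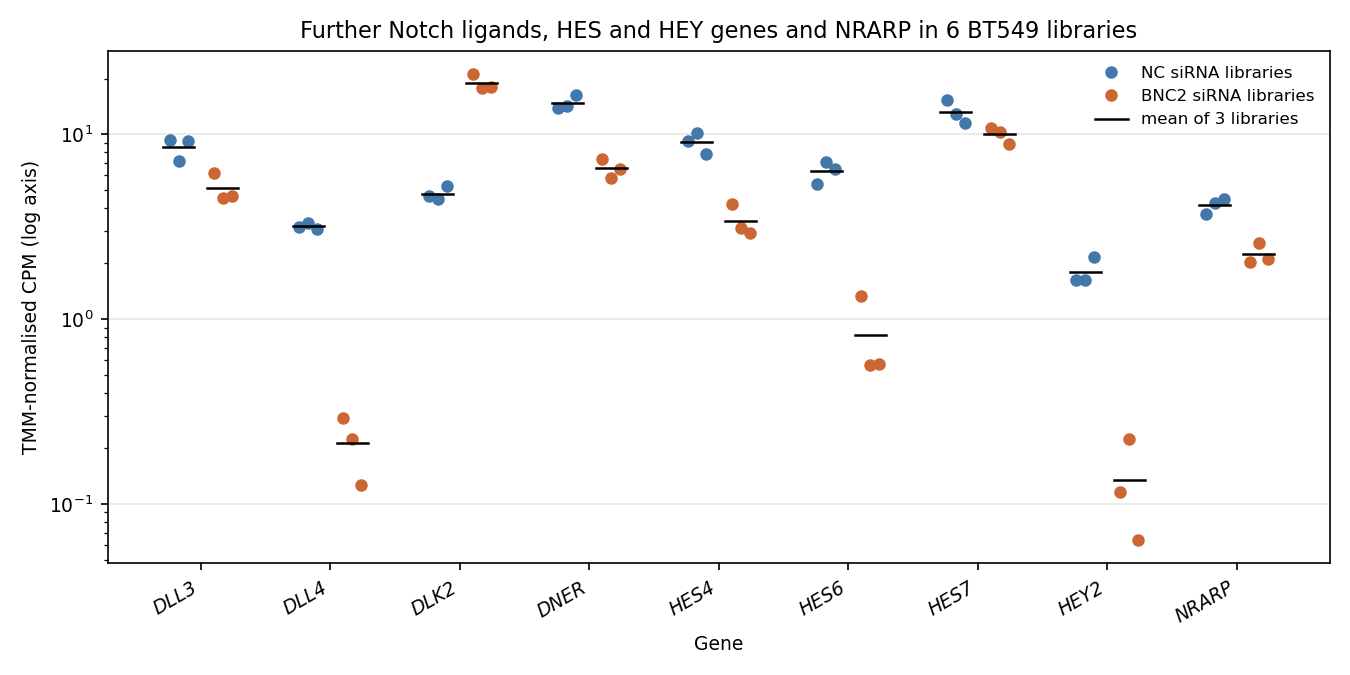
Level of DLL3, DLL4, DLK2, DNER, HES4, HES6, HES7, HEY2 and NRARP in CPM on a log axis, with 1 point per library and a bar at the mean of the 3 libraries of a group. The BNC2 siRNA points lie above the NC siRNA points for DLK2 and below them for the other genes shown, with DLL4 and HEY2 the furthest apart.

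The genes that process the receptor moved both ways. Of 9 cleavage genes, 4 rose and 3 fell, beside 36.6% higher and 36.2% lower among all genes tested. ADAM10, the protease that makes the first ligand-dependent cut, rose from 139 ± 6.32 CPM to 196 ± 12.1 CPM (SD, n = 3 each; log2 fold change 0.50, adjusted p = 1.57e-06). Its relative ADAM17 fell from 97.3 ± 8.20 CPM to 62.0 ± 3.15 CPM (SD, n = 3 each; log2 fold change -0.65, adjusted p = 3.77e-07). FURIN, which cuts the receptor on its way to the membrane, also fell (log2 fold change -0.41, adjusted p = 8.48e-05). Within γ-secretase, NCSTN, its substrate-binding subunit, rose from 89.4, 91.2 and 92.5 CPM to 194, 197 and 187 CPM (log2 fold change 1.08, adjusted p = 3.77e-11). APH1B, a scaffold subunit, rose from 6.87, 6.78 and 6.80 CPM to 23.7, 25.9 and 22.3 CPM (log2 fold change 1.81, adjusted p = 1.37e-10). PSEN2, a catalytic subunit, fell (log2 fold change -0.37, adjusted p = 0.00701). APH1A (log2 fold change 0.13, adjusted p = 0.0802) and PSENEN (0.03, adjusted p = 0.724) were not called.

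Of the 5 glycosylation genes tested, POFUT1 rose, LFNG fell and 3 were not called, where 72.9% of all genes tested were called. POFUT1, the O-fucosyltransferase that modifies Notch, went from 230 ± 2.59 CPM to 414 ± 10.9 CPM (SD, n = 3 each; log2 fold change 0.85, adjusted p = 3.56e-10). LFNG, a Fringe enzyme that extends this fucose and alters the response to Jagged and Delta-like ligands, had 29, 45 and 22 counts against 7, 10 and 19 counts (log2 fold change -1.35 ± 0.37 SE, adjusted p = 0.00362), and 1 BNC2 siRNA library exceeded 1 CPM. In the nucleus, RBPJ rose from 67.8, 71.1 and 74.8 CPM to 92.5, 89.4 and 95.4 CPM (log2 fold change 0.38, adjusted p = 4.34e-05). The coactivator CREBBP rose (log2 fold change 0.44) and the cofactor SNW1 (-0.44) and the RBPJ corepressor SPEN (-0.60) fell. Their adjusted p-values were 3.94e-05, 9.2e-06 and 1.22e-06.

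Of 11 tested genes of endocytosis and turnover, 4 rose and 5 fell. Among all genes tested, 36.6% rose and 36.2% fell, so such calls were common. MIB1, the ubiquitin ligase that drives ligand uptake in the sending cell, rose from 81.7 ± 9.19 CPM to 143 ± 16.1 CPM (SD, n = 3 each; log2 fold change 0.81, adjusted p = 2.61e-07). MIB2, a relative of MIB1 (log2 fold change -0.36, adjusted p = 0.00213), and NEURL1B (-0.85, adjusted p = 7.57e-06) fell. NUMB, an inhibitor of Notch in the receiving cell, fell from 139 ± 2.73 CPM to 99.5 ± 2.45 CPM (SD, n = 3 each; log2 fold change -0.49, adjusted p = 7.37e-07). ITCH, a ubiquitin ligase that acts on Notch, rose (log2 fold change 0.53, adjusted p = 7.9e-07). DTX4, of the Deltex family, fell from 2.70, 3.70 and 3.13 CPM to 0.407, 0.790 and 0.255 CPM (log2 fold change -2.67 ± 0.32 SE, adjusted p = 1.03e-06) and passed the filter through the control libraries alone.

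**Figure D4:**
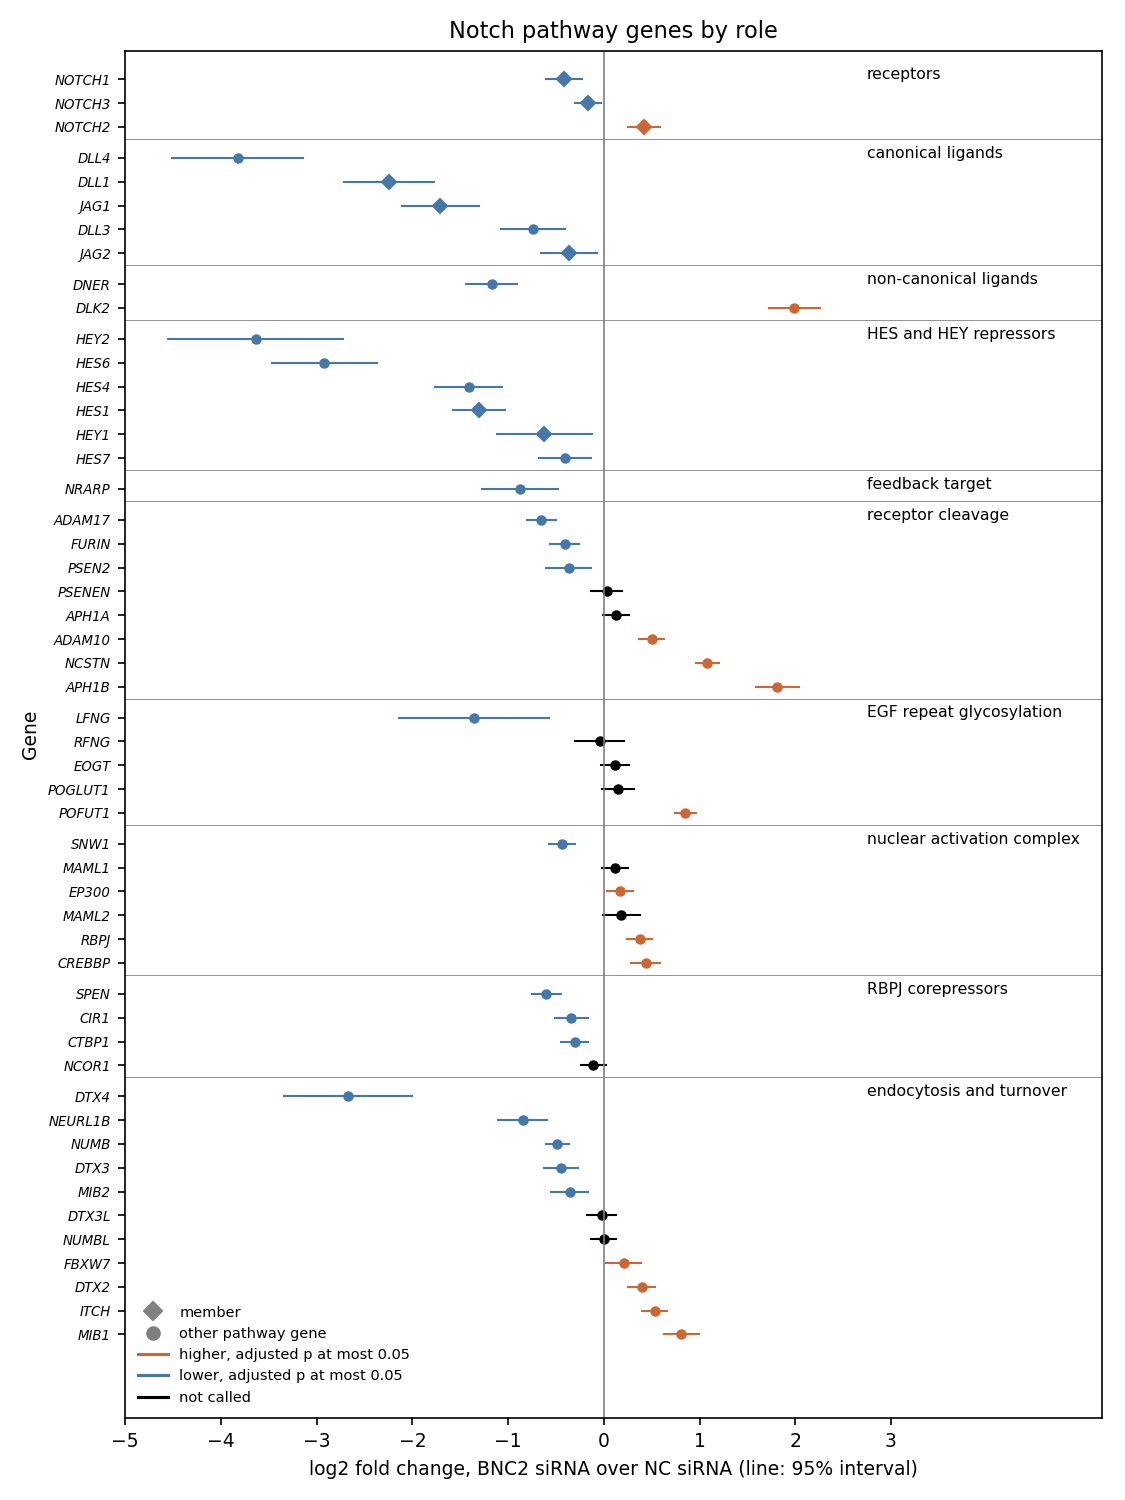
Log2 fold change (BNC2 siRNA minus NC siRNA) of the tested Notch pathway genes reported here with the 95% confidence interval from edgeR's fit, grouped by role, with called rises in orange, called falls in blue, genes not called in black, and diamonds (member) for the receptors, ligands and targets of the 10 genes. The 5 canonical ligands and 6 HES and HEY genes lie to the left of 0, and the cleavage genes lie on both sides. Of those to the left, DLL1, DLL4 and HEY2 passed the filter through the control libraries alone and could be called in that direction only. HES6 exceeded 1 CPM in 1 BNC2 siRNA library.

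The transcripts whose levels followed NOTCH2 most closely over the 6 libraries were SLC25A46, LRIG2 and GALNT1. Likeness was the root mean square difference in log2(CPM + 0.5), each gene taken relative to its NC siRNA mean, among 10252 genes outside the list with a mean of at least 5 CPM. It was 0.0281 for SLC25A46, 0.0329 for LRIG2 and 0.0355 for GALNT1. As for NOTCH2, their highest control level was in NC siRNA replicate 1 and their highest level of all in BNC2 siRNA replicate 3. SLC25A46, for example, went from 60.3, 49.7 and 48.6 CPM to 63.3, 69.2 and 76.5 CPM.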

How the data were processed

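Poly(A) RNA was sequenced as single-end reads, and the authors aligned these with STAR (version 2.6.1d in the submitters' processing notes) to hg19 and counted uniquely mapped reads per gene. The values deposited by the authors are raw counts without normalisation, and the table of the series holds the counts of the reverse strand, so that antisense reads were left out. Reads on no gene made up 37.7% to 41.1% of a library and were left out of library sizes.

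The 12186 genes that exceeded 1 CPM in 3 or more of the 6 libraries were scaled by TMM (factors 0.972 to 1.04) and compared, on all genes at once and with no replicate block, by the quasi-likelihood test of edgeR 4.0.16 (limma 3.58.1, R 4.3.3) with Benjamini-Hochberg adjustment. CPM values are TMM-scaled. An exact permutation test of 3 against 3 libraries was not used, as it cannot pass 0.05. On simulated counts with 200 genes changed 2-fold, of which 199 were tested, 192 were recovered, with 11 false calls. In the data 72.9% of the genes tested were called, and many changes were smaller than 2-fold. The simulation therefore does not give the rates of recovery or of false calls for these data. Alternatives were the likelihood ratio test, DESeq2 1.42.0, its size factors, scaling by total counts, no filter, filterByExpr, a replicate block, both strands and leaving out each library.

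The labels do not say whether replicate numbers pair the libraries, and the main fit treated them as unpaired. Positions and lengths came from GENCODE mapped to GRCh37 and promoters from RefSeq. The 10 genes, the pathway and marker lists and the rule for naming genes were chosen with earlier results of these data known. The rule named the 10 genes, pathway genes called with at least 2-fold change, the highest and lowest log2 fold change of each role, and the 3 genes most like the called Notch gene of highest level. DLL3, ADAM10, FURIN, PSEN2, APH1A, PSENEN, RBPJ, MIB2, NEURL1B, NUMB, ITCH and NOTCH2NL were named after their values were seen. A few genes of these lists enter the counts but are not reported singly.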

Additional observations from a re-analysis of the deposited data

How the results depend on the processing

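Each of the 8 tested Notch genes kept its direction in every alternative that tested it. In 97 of 109 comparisons of these genes with an alternative the call was kept, and in 12, all of NOTCH3, JAG2 or HEY1, it was lost. The number called was 8, 7 with DESeq2, 7 with a replicate block, 6 with no filter and 5 to 7 without 1 library, the lowest being without NC siRNA replicate 2 or BNC2 siRNA replicate 2. With the replicate block 8400 of all genes were called against 8879. The labels do not say whether same-numbered libraries were prepared together. Such libraries did not deviate together (correlations -0.256, -0.0908 and -0.151), but with 3 libraries per group these values cannot decide whether they were paired. Scaling by total counts moved the median log2 fold change of all genes to -0.07. Of the pathway list 43 genes were called, 41 with DESeq2, 40 with the block and 35 to 42 without 1 library. Without an NC siRNA library 49 of its genes were tested in place of 53, so part of that drop is genes that were not tested, as DLL1 was among the 8 Notch genes. PSENEN, not called in any fit, changed sign from 0.031 to -0.044 with total counts and ranged from -0.040 to 0.095 without 1 library. APH1A was called with no filter (log2 fold change 0.16, adjusted p = 0.0399). With the longest coding transcript as length, shares moved beyond their spread for NOTCH2 (75.2% with NC siRNA and 82.7% with BNC2 siRNA), NOTCH3 (17.0% and 12.4%), NOTCH1 (4.71% with BNC2 siRNA), JAG1 (33.1% and 23.1%), JAG2 (34.6% and 61.4%) and DLL1 (32.3% with NC siRNA), while each share moved the same way on knockdown. Depth limits NOTCH4 and HEYL, and the low counts of DLL1, DLL4, HEY2 and DTX4 after knockdown limit the size of their falls.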

Other observations

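Reads on the strand opposite to the Notch genes, which the deposited counts leave out, were few. They came to 33 or fewer per library for NOTCH2, the highest, against 6498 to 10114 counts on its own strand. For NOTCH1 they were 12, 13 and 14 with NC siRNA and 6, 5 and 4 with BNC2 siRNA, and for NOTCH3 17, 21 and 25 against 5, 16 and 10. No test was made of these counts.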
